A study of Mus musculus with 44 samples.

Results

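The 12 libraries described here are the total RNA samples of the first sequencing set of a microglial translatome study, and they are 12 of 44 libraries in the series. Each came from mouse dorsal cortex and hippocampus harvested at postnatal day 28 to 29. Input is RNA of the whole homogenate, and SN_input is RNA of the synaptosome fraction made from it, in which pinched-off synapses are enriched. Both were taken ahead of the pull-down that isolates tagged ribosomes. Each library was taken by its label: Input_Control and SN_input_Control replicates A to C, and Input_Tamoxifen and SN_input_Tamoxifen replicates D to F, which gave 3 libraries in each of 4 groups.

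All mice, controls included, carried the genotype CX3CR1-CreERT2 (+/-) x RPL10a-GFP flox (+/-) in the sample labels, whereas the series text gives the RPL10a-GFP allele as fl/fl. Cre recombinase fused to a mutated oestrogen receptor (CreERT2) is driven by the promoter of Cx3cr1, a receptor of microglia and related macrophages, so recombination is limited to the cells that use that promoter. The tamoxifen groups had 100 mg of tamoxifen per kg, in sunflower oil with ethanol, on postnatal days 15, 17 and 19. The protocol gives the controls vehicle on those days, and the series text calls them untreated. Harvest fell 9 to 10 days after the last dose. A tamoxifen group therefore differs from its control by drug exposure and by recombination together, and these cannot be told apart in this design. Sex, pooling of animals and whether a letter stands for 1 animal in both fractions are not given in the sources used here, so p-values measure the spread between these libraries, which may be partly technical.

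Tamoxifen binds oestrogen receptors and opens the nucleus to CreERT2, and it is also known to inhibit late steps of cholesterol synthesis, including the isomerase Ebp. Microglia, the resident macrophages of the brain, make up a minority of cells in cortex and hippocampus, so a change limited to them contributes little to total RNA. Synaptosomes hold pre- and postsynaptic compartments rich in mitochondria, together with attached glial processes. In bulk RNA, fewer cells of a type and less RNA per cell cannot be told apart.

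Between 3288305 and 17330989 reads were assigned to genes per library, and 10055 to 17832 genes had at least 1 count. A count of 0 allows up to 3 counts, which is 0.173 to 0.912 CPM (counts scaled to library size), for counting error only since reads carry no molecular identifiers. Input libraries did not group by treatment. Input control A and Input tamoxifen D resembled each other (Pearson r = 0.77 across 13455 genes, which are not independent) more than either resembled the other 4 Input libraries, with which r ran from 0.65 to 0.70. These libraries had 60.0% and 64.3% of their reads assigned to genes, against 35.6% to 46.0% in the other 4. Genes with transcripts under 1000 nucleotides (the median over annotated transcripts) took 18.5% and 17.4% of their reads, against 28.2% to 33.1%. SN_input tamoxifen D had the fewest genes with a count, 10055, and SN_input tamoxifen E and F had 61.2% and 65.9% of their reads in mitochondrially encoded genes.

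**Figure D1:**
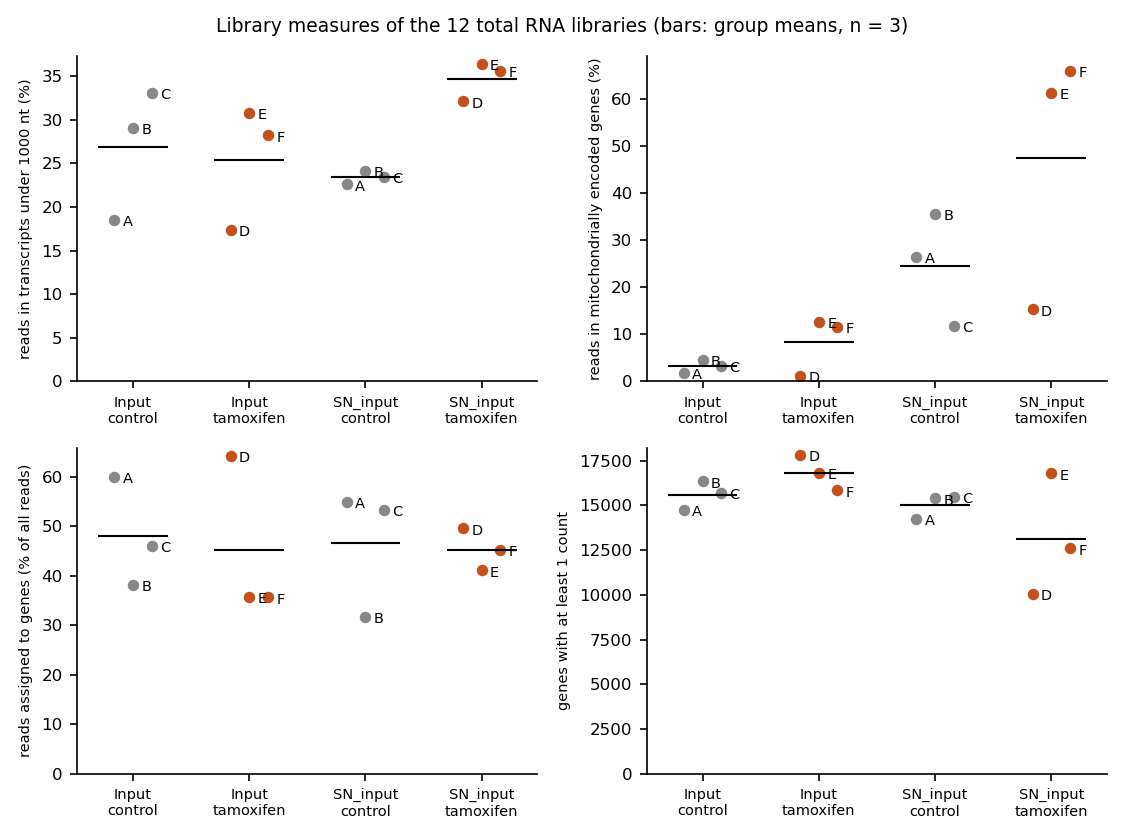
Each point is 1 library, labelled by its replicate letter, in grey for control and orange for tamoxifen, and bars are group means of 3. Input libraries A and D sit apart from the other 4 Input libraries in the short-transcript and assigned shares, and the SN_input tamoxifen libraries lie at 32.1% to 36.4% for short transcripts, above the SN_input controls at 22.6% to 24.2%.

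Defining markers of neurons, oligodendrocytes and astrocytes were present in every Input library. Snap25, a synaptic vesicle fusion protein of neurons, ran from 1638 to 4076 CPM in Input (CPM after TMM scaling, as for all CPM of genes below). Mbp, a myelin protein of oligodendrocytes, ran from 246 to 1930 CPM, and the glutamate transporter Slc1a2 of astrocytes from 360 to 908 CPM. Microglial markers were low in Input and higher in SN_input. P2ry12, a purine receptor of microglia, ran from 4.03 to 35.2 CPM in Input and from 73.9 to 147 CPM in SN_input.

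The first question was whether whole homogenate RNA differed between tamoxifen and control mice. No gene of 13455 tested passed in Input (edgeR quasi-likelihood test, Benjamini-Hochberg adjusted p under 0.05, 0% called; the smallest adjusted p was 1). At an unadjusted p under 0.05, 317 genes (2.36%) were found, 248 with the tamoxifen mean higher (1.84%) and 69 with it lower (0.513%). In 963 genes (7.16%) all 3 tamoxifen libraries lay on one side of all 3 controls, higher in 600 (4.46%) and lower in 363 (2.7%). DESeq2 called 12 genes (0.0892%) in Input and limma voom called 0.

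The 12 genes of DESeq2 had few or no counts in 1 group. Fdxr, a mitochondrial electron carrier enzyme picked out here after its values were seen, had 0, 0 and 0 counts in the controls and 595, 21 and 4 counts in the tamoxifen libraries. One library held over 80% of the summed CPM in 2 of the 12. Without Input A and D, which leaves 2 libraries in each Input group, edgeR called 0 genes in Input and found 212 at an unadjusted p under 0.05.

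In Input the named genes with the smallest p did not pass. Rtn4rl1, a reticulon 4 receptor-like protein, was at 15.6, 19.1 and 14.5 CPM in the controls and 80.6, 72.4 and 51.6 CPM with tamoxifen. Those groups did not overlap, and the log2 fold change was 2.06 (SE 0.73, 95% interval 0.55 to 3.57, edgeR adjusted p = 1). In SN_input the same gene lay at 57.7, 137 and 142 CPM in the controls and 57.5, 47.9 and 62.3 CPM with tamoxifen, so the order of the group means was the other way round. Vtn, the matrix protein vitronectin, made by mural cells, was at 4.25, 0.299 and 3.70 CPM against 5.19, 17.6 and 32.2 CPM. All 3 tamoxifen values lay above the controls, with D close to control A, and the log2 fold change was 2.71 (SE 0.93, edgeR adjusted p = 1).

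The second question was the same contrast in the synaptosome fraction. Again no gene of 13455 passed in SN_input (edgeR, 0% called, smallest adjusted p = 0.856). At an unadjusted p under 0.05 there were 764 genes (5.68%), 409 higher (3.04%) and 355 lower (2.64%) with tamoxifen. The groups did not overlap in 1461 genes (10.9%), of which 552 were higher (4.1%) and 909 lower (6.76%). DESeq2 called 32 genes (0.238%) and limma voom 0. In 14 of those 32, 1 library held over 80% of the summed CPM, and in 13 of the 32 the highest library was tamoxifen D, the one with the fewest genes detected. Without tamoxifen D, edgeR still called 0 genes.

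Genes with the smallest p in SN_input lay apart by library without passing. Fermt2, an adaptor of integrin adhesions, was at 70.7, 63.8 and 56.6 CPM in the controls and 180, 305 and 512 CPM with tamoxifen (log2 fold change 2.38, SE 0.67, edgeR adjusted p = 0.856). Sez6, a synaptic membrane protein of neurons, was at 229, 355 and 325 CPM against 61.6, 80.7 and 59.7 CPM (log2 fold change -2.17, SE 0.65, edgeR adjusted p = 0.856). Neither gene was apart in Input, where the log2 fold changes were 0.07 and 0.21.

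One set described further in SN_input was the nuclear genes of the mitochondrial respiratory chain, singled out after their values were seen and so given without a test. Respiratory complexes pass electrons to oxygen and drive ATP synthase, and most of their subunits are encoded in the nucleus. Of 75 such genes tested (complexes I, III and IV and ATP synthase), 70 had a higher mean with tamoxifen in SN_input, with a median log2 fold change of 1.85, against -0.16 over all 13455 genes. The groups did not overlap in 39 of the 75, all with tamoxifen higher, where 4.1% of all genes tested were higher without overlap. None passed in the edgeR fit above, and 41 had an unadjusted p under 0.05 with tamoxifen higher, as had 3.04% of all genes. Other fits did call members in SN_input: edgeR without the filter on low counts called Cox6c, Uqcr11, Atp5j2 and Cox6a1, among 10 of 25447 genes (0.0393%). With a covariate splitting the libraries at an assigned share of 48%, chosen after seeing the data, edgeR called 25 of the 75, among 39 of 13455 genes (0.29%). In Input the same 75 genes had a median of -0.15, 30 of 75 positive, and 2 higher and 3 lower without overlap, where 4.46% and 2.7% of all genes were. That Input median ran from -0.54 without control A to 0.23 without tamoxifen D.

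The size of the difference varied among the complexes. Complex I genes (36, which oxidise NADH) had a median of 1.79 in SN_input, and all 36 were positive. The 8 genes of complex III, which passes electrons to cytochrome c, had a median of 2.09, with 6 positive. The 15 genes of complex IV, which reduces oxygen, had a median of 2.20, with 14 positive. ATP synthase had the smallest median of these, 1.17 over 16 genes, 14 of them positive.

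Among single genes, Ndufs4, an accessory subunit of complex I, had its highest value in D. In SN_input it was at 154, 118 and 146 CPM in the controls and 848, 396 and 538 CPM with tamoxifen. The groups were well apart, with a log2 fold change of 2.09 (SE 0.65, 95% interval 0.75 to 3.43, edgeR adjusted p = 0.856). In Input the same gene was at 77.7, 196 and 397 CPM against 83.4, 157 and 241 CPM, with full overlap. Fmc1, an assembly factor of ATP synthase, was at 38.0, 164 and 20.4 CPM in the SN_input controls and 303, 929 and 807 CPM with tamoxifen. Its log2 fold change was 3.20 (SE 1.01, edgeR adjusted p = 0.856). Dbi, which binds acyl-CoA and is abundant in glia, also lay higher in all 3 tamoxifen libraries, with 374, 495 and 356 CPM against 1768, 2724 and 3694 CPM.

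As a share of reads outside mitochondrially encoded genes, the 75 genes took 2.62%, 4.64% and 2.49% in the SN_input controls A, B and C. They took 5.35%, 13.5% and 12.7% in tamoxifen D, E and F. The groups did not overlap, but D lay near control B and far below E and F. In Input the controls had 1.66%, 7.62% and 7.25% and the tamoxifen libraries 1.39%, 8.43% and 7.31%. There the libraries split as A and D against the rest, whatever the treatment. A later set of tamoxifen libraries, with no controls of its own, had 6.20% to 7.01% in 5 SN_input libraries and 2.33% to 2.60% in 5 Input libraries. That SN_input range lies above all 3 first-set controls and overlaps no first-set SN_input library, falling between tamoxifen D and F.

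**Figure D2:**
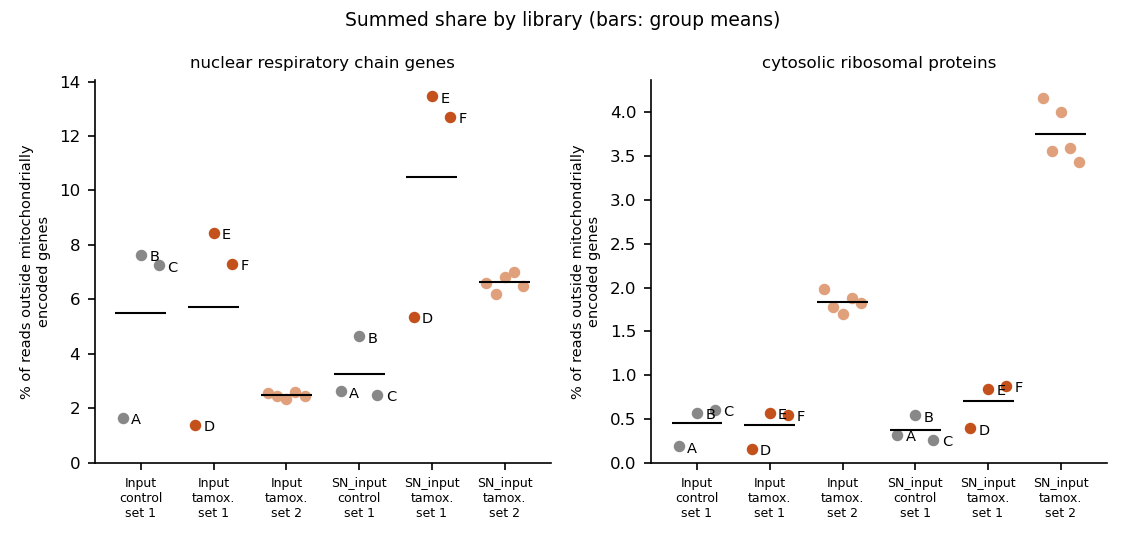
Each point is 1 library, as the percent of its reads outside mitochondrially encoded genes that fell in 75 nuclear respiratory chain genes (left) or 69 cytosolic ribosomal protein genes (right). Grey is control, orange tamoxifen of the first set (letters shown) and pale orange tamoxifen of the second set, and bars are group means. First-set SN_input tamoxifen libraries reach 13.5% on the left, and second-set libraries are tightly grouped.

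Transcript length moved with this result. Of the 75 genes, 59 have transcripts under 1000 nucleotides, 78.7% against 17.6% of all tested genes with a length. Those 59 had a median log2 fold change of 2.05 in SN_input, and the 16 longer ones 0.76. The other 2041 short protein-coding genes, outside this set and the ribosomal proteins, had a median of 0.11, against -0.27 in the 10102 genes of 1000 nucleotides or more. Library shares of short transcripts were 22.6%, 24.2% and 23.4% in the SN_input controls and 32.1%, 36.4% and 35.6% with tamoxifen. This was 1 of 22 library comparisons and the only one without overlap (two-sided exact permutation p = 0.1, the smallest that 3 against 3 allows, adjusted p = 0.906). The part of transcript length in the respiratory chain result was not tested.

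Reads in mitochondrially encoded genes moved less regularly. They took 26.4%, 35.6% and 11.7% of SN_input control reads and 15.3%, 61.2% and 65.9% with tamoxifen, so D lay among the controls. Of 21 such genes tested, 20 were positive in Input (median log2 fold change 1.14) and 20 in SN_input (median 1.47), and in none were the groups apart in either fraction. With total counts as scaling the SN_input median of these 21 genes was 0.37. A covariate that split the libraries at an assigned share of 48% put it at 0.01, against -0.96 over all genes. Leaving out each SN_input library in turn gave medians of 1.66 to 2.18 for the 75 nuclear respiratory chain genes. Scaling by total counts moved the median of all genes in SN_input from -0.16 to -1.14, and the median of those 75 genes was then 0.96.

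**Figure D3:**
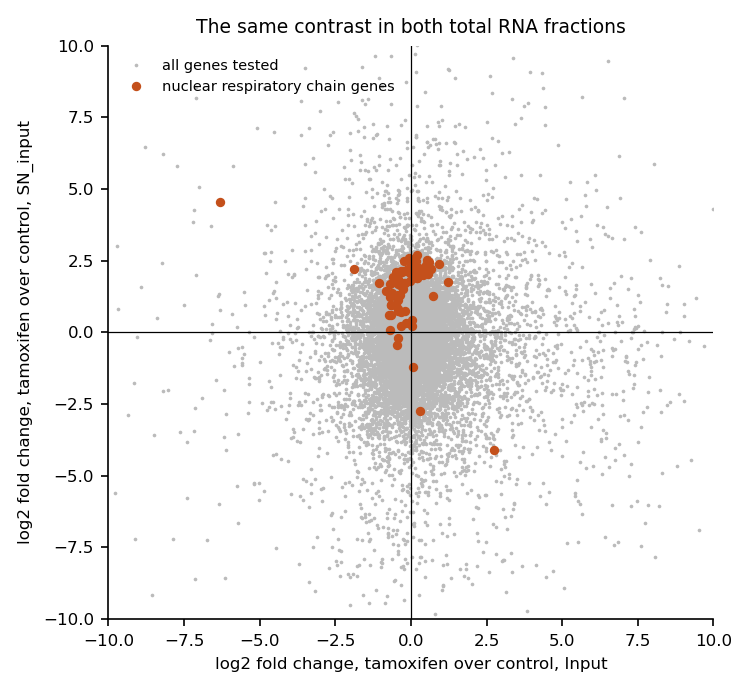
Each grey point is 1 of the 13455 genes tested, placed by its log2 fold change (tamoxifen over control) in Input and in SN_input, with the 75 nuclear respiratory chain genes in orange. The axes stop at 10 and leave 3 genes outside. Orange points lie mostly above the horizontal line, with a median of 1.85 in SN_input, and close to the vertical line, with a median of -0.15 in Input.

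Cytosolic ribosomal proteins were a second set with high values in SN_input. Of 69 tested, 60 were positive, with a median log2 fold change of 1.19, and 15 were higher and 0 lower without overlap, against 4.1% and 6.76% of all genes. With total counts as scaling the median was 0.31, against -1.14 over all genes. Rps14, a small subunit protein, was at 156, 293 and 106 CPM in the controls and 356, 543 and 658 CPM with tamoxifen (log2 fold change 1.49, SE 0.75, edgeR adjusted p = 0.856). In Input the median was -0.10, with 31 of 69 positive, and ran from -0.47 without control A to 0.29 without tamoxifen D. These genes are short too, 84.1% under 1000 nucleotides, and several share reads with processed pseudogenes, so single members are uncertain. Second-set tamoxifen libraries had 3.44% to 4.17% of reads in these genes in SN_input, against 0.264% to 0.880% in all 6 first-set SN_input libraries, and the 2 ranges do not overlap.

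The genes nearest to the intervention were read next. Cx3cr1, the driver of the Cre allele, was at 3.12, 14.3 and 20.5 CPM in Input controls and 4.61, 4.16 and 5.79 CPM with tamoxifen (log2 fold change -1.38, 95% interval -3.25 to 0.49, edgeR adjusted p = 1). In SN_input it was at 111, 61.3 and 73.5 CPM against 24.6, 87.1 and 124 CPM. The groups overlapped in both fractions. Rpl10a, the ribosomal protein that carries the tag, was at 6.05 CPM or lower in every library, with 95% intervals of its log2 fold change from -3.95 to 4.56 in Input and -7.20 to 2.32 in SN_input. No feature for GFP was in the counts used here, so recombination itself was not measured.

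Microglial genes did not pass in either fraction. The 25 markers had a median log2 fold change of -0.06 in Input, with 10 positive, and 0.11 in SN_input, with 13 positive. Single libraries moved these medians: Input was at -0.56 without tamoxifen D and -0.42 without control C, and SN_input was at -0.56 without tamoxifen D. With total counts as scaling SN_input was at -0.80, where the median over all genes was -1.14. Their summed level in Input was 577, 547 and 595 CPM in the controls and 440, 465 and 425 CPM with tamoxifen, a log2 difference of -0.37 with no overlap. Sums of this kind were compared 50 times, over 25 lists and both fractions, and did not overlap in 6. Each of the 6 had a two-sided exact permutation p of 0.1, the smallest that 3 against 3 allows. None passed (adjusted p = 0.833). In SN_input the sums were 4386, 3278 and 5031 CPM against 9730, 3100 and 3147 CPM, with the highest in tamoxifen D and the other 2 below every control. C1qb, a complement subunit, gave 696, 330 and 936 CPM against 2585, 312 and 372 CPM there. Single markers in Input were broad: for 1 of 25 the groups were apart with tamoxifen higher and for 1 with it lower, near the 4.46% and 2.7% of all genes. Activation genes (12 of 21 tested) had medians of 0.59 in Input and 0.26 in SN_input, the latter -0.49 with total counts as scaling, and Apoe, a lipid carrier, overlapped in both fractions. The fit with the 48% split covariate called Apoe in SN_input (log2 fold change 1.59, edgeR adjusted p = 0.0483).

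In pathways that tamoxifen is known to touch, no single gene passed in the edgeR fit. No list sum passed either (two-sided exact permutation, smallest adjusted p = 0.833 over 50 sums). Of 23 cholesterol synthesis genes, 7 were positive in Input (median -0.24) and 10 in SN_input (median -0.16). Ebp gave a log2 fold change of -0.07 in Input and 0.05 in SN_input. Srebf2, the transcription factor that switches this pathway on, was at 224, 161 and 143 CPM in SN_input controls and 41.4, 62.7 and 46.7 CPM with tamoxifen. Those groups did not overlap (log2 fold change -1.81, SE 0.70, edgeR adjusted p = 0.856), and in Input its log2 fold change was 0.00.

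Among oestrogen receptors and their targets, 11 of 15 genes were tested. The median was -0.48 in Input, with 4 positive, and -1.41 in SN_input, with 1 positive and 2 lower without overlap. Of all genes, 44.8% were positive in SN_input and 6.76% lower without overlap. Scaled by total counts, the SN_input median of the list was -2.61, against -1.14 over all genes. Summed SN_input levels of the list were 981, 681 and 873 CPM in controls and 470, 532 and 553 CPM with tamoxifen, without overlap. Igfbp4, a binding protein of insulin-like growth factors, was at 164, 73.5 and 78.0 CPM in SN_input controls and 3.22, 67.8 and 40.0 CPM with tamoxifen. The receptor gene Esr1 had 34.2 CPM in Input control A and at most 0.597 CPM in the other 5 Input libraries. DNA damage genes of the p53 pathway (15 tested) had medians of -0.17 and -0.82 in Input and SN_input, with Cdkn1a, a cell cycle inhibitor, overlapping in both. Glucocorticoid response genes (11 tested) had medians of -0.20 and -0.48. Their summed SN_input level went the other way, with 852, 3334 and 810 CPM in controls and 1988, 9765 and 5866 CPM with tamoxifen. Most of it was the metallothionein Mt1, at 453, 2929 and 428 CPM against 1732, 9066 and 5387 CPM, and both sets overlapped. The 48% split covariate called Mt1 in SN_input too (log2 fold change 1.64, edgeR adjusted p = 0.0473).

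Interferon genes were sparse, and 15 of 27 were tested. Their median was -0.06 in Input, with 2 lower and 0 higher without overlap (2.7% and 4.46% of all genes), and 0.39 in SN_input. With total counts as scaling the SN_input median was -0.92, against -1.14 over all genes. Summed SN_input levels were 101, 149 and 108 CPM in controls and 349, 178 and 181 CPM with tamoxifen, without overlap. Ifit3, an RNA-binding antiviral protein (chromosome 19, 34583531 to 34588731, GRCm38, GENCODE M21), had 89, 60 and 32 counts in Input controls and 0, 0 and 0 with tamoxifen. The tamoxifen mean was at least 8.94-fold lower, with the floor taken as the highest CPM that 3 counts stand for in any of the 3 tamoxifen libraries. In SN_input it went the other way, with 1, 4 and 0 counts in the controls and 652, 11 and 4 counts with tamoxifen. This gene had an unadjusted p of 0.0002 for the difference between fractions, which did not pass (edgeR adjusted p = 1). Isg15, an interferon-induced ubiquitin-like protein, was at most 3.97 CPM in every library.

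Lists of other cell types were read in the same way. Neuronal markers (20) had medians of -0.07 in Input and -0.37 in SN_input, and oligodendrocyte markers (18) -0.04 and -0.10. Scaled by total counts, their SN_input medians were -1.13 and -0.99, near the -1.14 over all genes. Astrocyte markers (18) had medians of 0.36 and 0.50, with summed SN_input levels of 13857, 9708 and 9190 CPM in controls and 20111, 18623 and 16181 CPM with tamoxifen. Those sums did not overlap, and with total counts as scaling the SN_input median of these markers was -0.34, against -1.14 over all genes. Gfap, the astrocyte filament protein, overlapped in both fractions. Endothelial and mural genes (9 of 17 tested) had a median of 1.87 in Input, or 0.85 without Input A and D, and -0.14 in SN_input, or -1.21 with total counts as scaling. Immediate early genes (15), which mark recent neuronal activity or handling of tissue, had medians of 0.38 (0.09 without Input A and D) and -0.92, with 12 and 3 positive. Blood genes (6 tested) had a median of 0.62 in Input and 2.16 in SN_input, and in SN_input Hba-a1, an alpha globin, was at 8.18, 12.5 and 4.96 CPM against 33.2, 37.2 and 62.8 CPM. None of these passed.

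Markers of striatum, a region outside the labelled dissection, had negative medians in both fractions, again without passing. The 12 genes had a median of -0.78 in Input, with 1 positive, and -1.31 in SN_input, with 2 positive. Scaled by total counts the SN_input median was -2.39, and with the 48% split covariate -2.51, where all genes had medians of -1.14 and -0.96. Leaving out single libraries gave medians from -1.34 (without tamoxifen D) to -0.34 (without control A) in Input and from -1.95 (without tamoxifen D) to -0.88 (without control C) in SN_input. Their summed Input level was 1200, 654 and 649 CPM in controls and 593, 229 and 434 CPM with tamoxifen, without overlap. In SN_input the sums were 956, 748 and 1330 CPM against 1121, 212 and 325 CPM, and tamoxifen D lay above controls A and B. Penk, the precursor of enkephalin peptides, was at 286, 156 and 270 CPM in Input controls and 107, 51.8 and 93.7 CPM with tamoxifen (log2 fold change -1.50, SE 0.67, edgeR adjusted p = 1). In SN_input it was at 292, 344 and 740 CPM against 423, 72.8 and 117 CPM, and the average over both fractions was -1.33 (edgeR adjusted p = 1). Several of these genes are also expressed in cortex. The part of dissection in this difference was not tested.

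**Figure D4:**
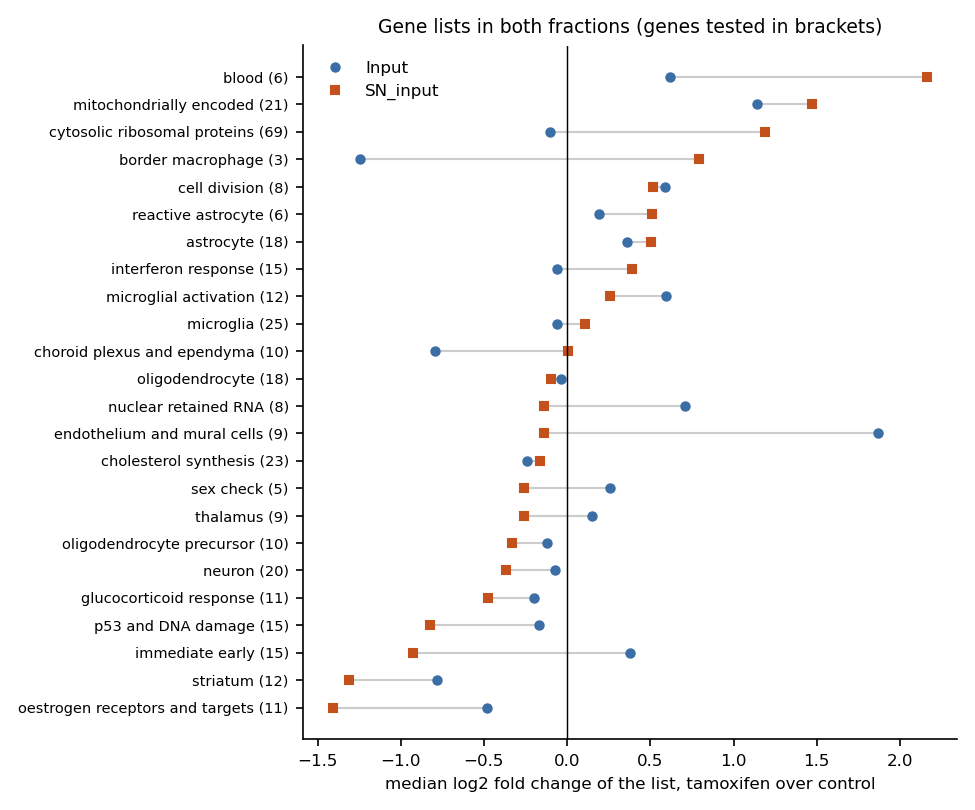
Median log2 fold change (tamoxifen over control) of each gene list with at least 3 tested genes, as a circle for Input and a square for SN_input, ordered by SN_input. Some lists have medians on the same side of 0 in both fractions, such as striatum at -0.78 and -1.31, and others on opposite sides, such as immediate early genes at 0.38 and -0.92.

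Consistency between both fractions was then asked directly. Across 13455 genes the log2 fold changes of Input and SN_input had a Pearson r of -0.0024 and a Spearman rho of 0.003, given as a description since genes are not independent and libraries of 1 letter may share an animal. Signs matched in 6683 genes (49.7%). Of the 28 genes at an unadjusted p under 0.05 in both fractions, 14 had the same direction. Those 14 are 4.42% of the genes found in Input and 1.83% of those found in SN_input. Of the 13455 genes, groups were apart in both fractions in 89, with 37 in the same direction and 52 in opposite directions. In single fractions the groups were apart in 7.16% (Input) and 10.9% (SN_input) of genes. Without the filter on low counts, edgeR called mt-Rnr2, a mitochondrial ribosomal RNA and the only call in Input (0.00393% of genes), higher with tamoxifen in both fractions (log2 fold changes 1.76 and 2.08), with overlapping groups in each.

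For the average of both fractions no gene passed (edgeR, 0% called, smallest adjusted p = 1), with 504 genes (3.75%) at an unadjusted p under 0.05, 296 higher (2.2%) and 208 lower (1.55%). For the average DESeq2 called 28 (0.208%) and limma voom 0. The test of the difference, SN_input minus Input, also called 0 (0%), with 536 genes (3.98%) at an unadjusted p under 0.05, 228 higher (1.69%) and 308 lower (2.29%). DESeq2 called 18 (0.134%) for the difference and limma voom 0. Iars2, the mitochondrial isoleucine tRNA ligase, was among the genes with the smallest p for the difference. It was at 89.3, 33.9 and 22.4 CPM in Input controls and 6, 15.9 and 11.8 CPM with tamoxifen, without overlap. In SN_input it was at 60.1, 38.1 and 56.4 CPM against 73.5, 200 and 182 CPM, without overlap in the other direction (difference 3.67 on the log2 scale, SE 1.11, edgeR adjusted p = 1).

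These counts of 0 have to be read with the size of change that the libraries could resolve. The 95% interval of a gene's log2 fold change had a median half-width of 2.90 in Input and 2.91 in SN_input, which is 7.46-fold and 7.51-fold. Fitted on its own 6 libraries, Input had a median half-width of 2.12 (4.35-fold), and SN_input on its own had 3.14 (8.79-fold). In the joint fit the median half-width was 2.02 (4.05-fold) for the average of both and 4.03 (16.4-fold) for the difference. To pass a Bonferroni level over all 13455 genes, a gene of median precision would have needed a log2 fold change of 8.42 in Input and 5.86 in the average. For no gene in Input or SN_input did the interval lie within -1 to 1, and it did so for 239 genes (1.86%) in the average. Within -2 to 2 lay 14.7% of genes with an interval in Input, 10.5% in SN_input and 30.7% in the average.

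Widths fell with abundance. In Input the median half-width was 4.75 in the 3364 genes with the lowest mean CPM and 1.56 (2.95-fold) in the 3364 with the highest. For the average it was 1.10 (2.15-fold) in those most abundant genes. Snap25, among the abundant markers, had a 95% interval of -1.35 to 1.02 in Input and -1.30 to 0.38 in the average. A log2 fold change of 1 in either direction therefore lay inside its Input interval. For Cx3cr1 the average interval was -2.02 to 0.58.

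**Figure D5:**
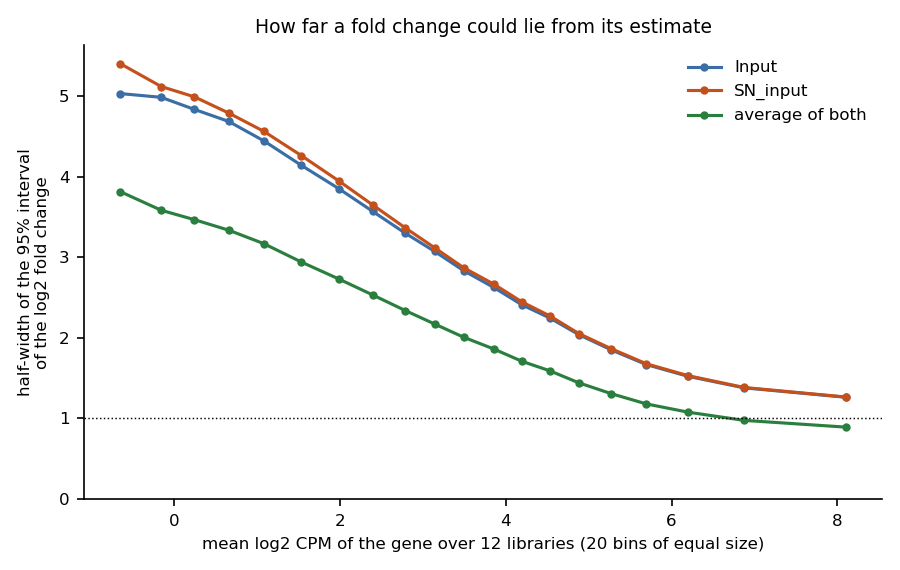
Median half-width of the 95% interval of the log2 fold change, over 20 bins of genes ordered by mean log2 CPM, for Input, SN_input and their average. The dotted line marks a half-width of 1. Only the average falls below it, and only in the bins of the most abundant genes.

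Replicate spread was read beside these widths. The 12 libraries had a common biological coefficient of variation of 1.12. Within single first-set groups the common dispersion, its square, was 0.403 to 0.534, with a median SD of 0.79 to 0.89 on the log2 CPM scale. Each of these groups was filtered on its own, which left 5188 to 9181 genes, fewer than in the 12-library fit. The second-set groups were filtered likewise, to 13979 genes in Input and 10805 in SN_input. Second-set tamoxifen libraries of the same fractions, with 5 libraries each, had a dispersion of 0.019 in Input and 0.128 in SN_input and a median SD of 0.18 and 0.41. They have no controls, so no tamoxifen contrast could be computed in them.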

How the data were processed

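Total RNA was amplified with SMART-Seq v4 and made into libraries with NEBNext Ultra II, per the labels' protocols. Per the labels, the deposited values are raw HTSeq counts for each Ensembl gene identifier. Submitters' processing notes name FastQC 0.11.7, Trimmomatic 0.38, Bowtie2 2.3.5, STAR 2.7.0d, HTSeq 0.9.1 and edgeR, and the genome build and counting options are not given in the sources used here. Of 54146 identifiers, 54079 were in GENCODE M21 (GRCm38), the source of symbols, positions and transcript lengths.

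The 12 libraries were fitted together as 4 groups in edgeR 4.0.16 (R 4.3.3), with TMM scaling, filterByExpr (minimum count 10), a quasi-likelihood test with 8 residual degrees of freedom and Benjamini-Hochberg adjustment over 13455 genes at 0.05. Standard errors were the unshrunk coefficient over the root of the F statistic. HTSeq class rows stayed out of library sizes. DESeq2 1.42.0 and limma 3.58.1 were alternatives, and the code was tested on simulated data. Log2 CPM used a prior count of 2. Single values were compared by two-sided exact permutation. Text names, per comparison, the 6 genes of smallest p with a mean log2 CPM of at least 4, the 3 most abundant members of each list and a fixed set of 16 genes, and not all are printed; some results are not reported here. Members and lists were chosen with earlier results of these data known. Replicate letters were not used to pair the fractions.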

Additional observations from a re-analysis of the deposited data

How the results depend on the processing

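Calls by edgeR stayed at 0 in all 4 comparisons with RLE scaling, total counts, TMM without mitochondrially encoded genes and all 24 first-set libraries. They also stayed at 0 with each fraction fitted alone, with the assigned share as a covariate, without Input A and D, and without any 1 of the 12 libraries (range 0 to 0). With limma voom they were 0 too. With no filter on low counts edgeR called 1 gene in Input (mt-Rnr2), 10 in SN_input and 5 in the average, all higher. DESeq2 called 12 in Input, 32 in SN_input, 28 in the average and 18 for the difference. A covariate that split each fraction at an assigned share of 48%, chosen after seeing the data like the previous covariate and the fit without A and D, gave 39 calls in SN_input, all higher, 25 of them in respiratory chain genes, and 0 elsewhere. Of those 39, 38 had a length and 33 were under 1000 nucleotides. The causes of these differences were not tested.

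Letters were compared as a hint only: same-letter deviations correlated at 0.0012 to 0.18, above 0.1 in 1 of 6 letters, so they were not used as pairs. With the letter as a fixed replicate block the difference had 0 calls, and with a random replicate block the average had 0 calls. Median half-widths on the log2 scale ran from 2.12 (its 6 libraries alone) to 3.71 (without A and D) in Input and from 2.45 (DESeq2) to 4.23 (the 48% split) in SN_input. For the average they ran from 1.72 to 2.79 and for the difference from 3.45 to 5.38. As folds, the SN_input values are 5.46 and 18.7, against 7.51 in the fit reported.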

Other observations

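Without the filter on low counts, 10 genes passed in SN_input, all with tamoxifen higher, and 3 of the 10 (Fmc1, Dbi and Cox6a1) had groups that did not overlap in scaled CPM, against 10.9% of the genes tested with the filter. Besides the mitochondrial rRNA genes mt-Rnr1 and mt-Rnr2 they included Cox6c, Cox6a1, Uqcr11, Atp5j2, Fmc1, Romo1 and Dbi, and the pseudogene Gm18782, which had 1115 counts in tamoxifen D, 0 in E and 1 in F. These genes were named after their values were seen. Cox6a1, a subunit of complex IV, had 15009, 12110 and 19440 counts in the SN_input controls and 35650, 53530 and 26963 with tamoxifen, a log2 fold change of 2.16.

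Length bins described the same libraries. In SN_input the median log2 fold change was 0.33 in the tenth of genes with the shortest transcripts (up to 774 nucleotides) and -0.20 in the tenth with the longest. In Input these medians were -0.04 and 0.12.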
